A study of Mus musculus with 6 samples.

Results

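The cytosolic ribosomal protein genes encode the proteins of the cytosolic ribosome, and they were taken here by symbol: every row named Rpl or Rps with a number and at most 1 further letter, together with Rplp0, Rplp1, Rplp2 and Rpsa. This rule found 80 of the 39017 genes in the count tables, 49 of the large subunit and 31 of the small subunit. The study asked what the loss of RNA polymerases I, II and III does to chromatin and transcription in mouse embryonic stem cells, and these 6 libraries are poly(A) RNA-Seq of the polymerase II line and of wild-type cells. The degron line carries a mini auxin-inducible degron and EGFP at the C-terminus of Rpb1, the largest subunit of polymerase II, on both alleles, and a doxycycline-inducible OsTIR1 cassette at Rosa26. It is 1 clone of V6.5 cells (C57BL/6 × 129/sv), chosen for strong degradation.

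Both degron groups received doxycycline at 1 µg/ml for 12 h. They differ in auxin, which directs the tagged protein to degradation. The untreated group (2 libraries) had none, and the auxin 6 h group (2 libraries) was exposed to 500 µM for 6 h. The wild-type group (2 libraries) lacks the tag, and its labels name no auxin. Whether it received doxycycline or auxin is not given in the sources used here. The study built its degron line from its wild-type line. Cells were kept on irradiated fibroblast feeders, and whether feeders were still present at harvest is not clear from the sources used here. The study calls the replicates of its sequencing experiments biological without saying what was separate. The p-values measure only the spread between these libraries, and whether that spread covers separate cultures is not given in the sources used here. The degron acts on protein, so the transcript of Rpb1 is no check of the auxin label.

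A ribosome holds 1 copy of nearly every ribosomal protein, so the cell makes these proteins in matched amounts from genes scattered over the genome. Their mRNAs are among the most abundant and long-lived in growing cells, and most begin with a terminal oligopyrimidine (TOP) tract, a C followed by an unbroken run of C and T, through which mTORC1 and the RNA-binding protein LARP1 govern their translation. Many introns of these genes hold small nucleolar RNAs, which guide the modification of ribosomal RNA.

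The 80 members lie on 19 chromosomes, and 29 of them hold 56 annotated snoRNA genes on the same strand. The annotation has 220 pseudogenes named after 53 of the members, and 150 of those pseudogenes had a count in some library. In 34 members more than 50% of the 100-base stretches of the principal transcript also occur in a transcript of another gene, so their counts are uncertain by as much as the counting gave to the copies. On the same strand, 27 members overlap an exon of another gene, mostly a snoRNA or microRNA, and 19 overlap one on the opposite strand. Whether the counting used strand is not given in the sources used here.

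One row goes against its label. The row named Rpl24 carries the identifier of Zbtb11, a zinc finger gene beside Rpl24 on chromosome 16 (mm10, chr16:55973883-56008913), with 3150 coding bases. The annotated Rpl24 gene sits in the table under the capital name RPL24 with 22 and 21 counts in the untreated, 18 and 40 in the auxin 6 h and 25 and 29 in the wild-type libraries, and 80.1% of its 100-base stretches are shared with other transcripts. The row stays in the counts over 80 members, and each is also given over the other 79. It had 413 and 451 counts in the untreated, 389 and 371 in the auxin 6 h and 705 and 696 in the wild-type libraries.

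The libraries held between 14094022 and 15358714 counts. In 76 members every library had at least 1000 counts, and the exceptions were Rpl10l, Rpl39l, Rpl3l and the row named Rpl24. The 9 pluripotency markers summed to 3568 to 4690 CPM (counts per 1000000 library counts) in the degron libraries and to 6858 and 6927 in the wild-type libraries. The 8 retina markers, checked because the wild-type label's protocol speaks of retinas, summed to 13 to 42 counts in any library, against 54797 to 102374 counts for the pluripotency markers. The 11 feeder fibroblast markers summed to 182 to 242 CPM in the degron libraries and to 146 and 153 in the wild-type libraries.

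For 59 members RefSeq (GRCm38.p6) gives a promoter window of 300 bases, 250 before and 50 after the annotated start. A C at the start base followed by 4 of C or T was found in 12 of these, which is 20.3%, against 2.49% of all 27025 genes with a window. A run of at least 8 of C or T touching the 5 bases either side of the start was found in 20 members (33.9%, against 9.63% of all windows). The annotated start decides both shares, and no match says only that these letters are not at that position. The windows below run from 10 bases before to 20 bases into the transcript, with the longest run of C and T that touches the 5 bases either side of the start in capitals. They are shown for members on both sides of the wild-type comparison and for Rps6, the small subunit protein phosphorylated by S6 kinase.
Rpl37a (chr1:72711250-72711279, plus strand): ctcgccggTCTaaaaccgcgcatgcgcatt
Rps28 (chr17:33824543-33824572, minus strand): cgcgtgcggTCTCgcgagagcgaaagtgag
Rpl38 (chr11:114668570-114668599, plus strand): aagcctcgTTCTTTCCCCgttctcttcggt
Rps21 (chr2:180257369-180257398, plus strand): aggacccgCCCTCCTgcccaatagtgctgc
Rps15a (chr7:118116128-118116157, minus strand): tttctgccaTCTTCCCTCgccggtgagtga
Rps19 (chr7:24884582-24884611, plus strand): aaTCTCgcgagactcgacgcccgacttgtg
Rps6 (chr4:86857348-86857377, minus strand): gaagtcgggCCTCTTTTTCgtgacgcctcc
Rpl37a and Rps28, both higher in wild-type cells, and Rps19, which was lower, lacked a C at the annotated start followed by 4 of C or T. Rpl38 and Rps21, both higher, and Rps15a, which was lower, had it.

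Other short motifs were searched over the whole 300-base window, each by itself, so that matches may overlap. CCGGAAG, the core of ETS-family sites, was found on either strand in 24 of 59 windows (40.7%, against 9.12% of all), and GGGCGG, the GC box, in 35 (59.3%, against 35.9%). AAGATGG, the core of the YY1 site, was found in 8 (13.6%, against 6.48%) and CCAAT in 18 (30.5%, against 37.9%). TATAAA, sought only from 45 to 15 bases before the start on the transcribed strand, was in 0 members and in 2.36% of all windows.

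Ribosomal protein genes took a smaller share of the library in wild-type cells than in the degron line, and the share after auxin lay within the spread of the untreated libraries. They held 9.47% and 10.4% of the counts in the untreated libraries, 9.91% and 10.02% in the auxin 6 h libraries, and 7.08% and 7.0% in the wild-type libraries. The mean was 9.96% ± 0.681 (SD, n = 2) untreated, 9.97% ± 0.0789 after auxin and 7.04% ± 0.0561 in wild-type cells. The auxin 6 h libraries lay between the 2 untreated libraries, and both wild-type libraries lay below all 4 degron libraries. With 2 libraries a group no permutation test of these shares was run.

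**Figure D1:**
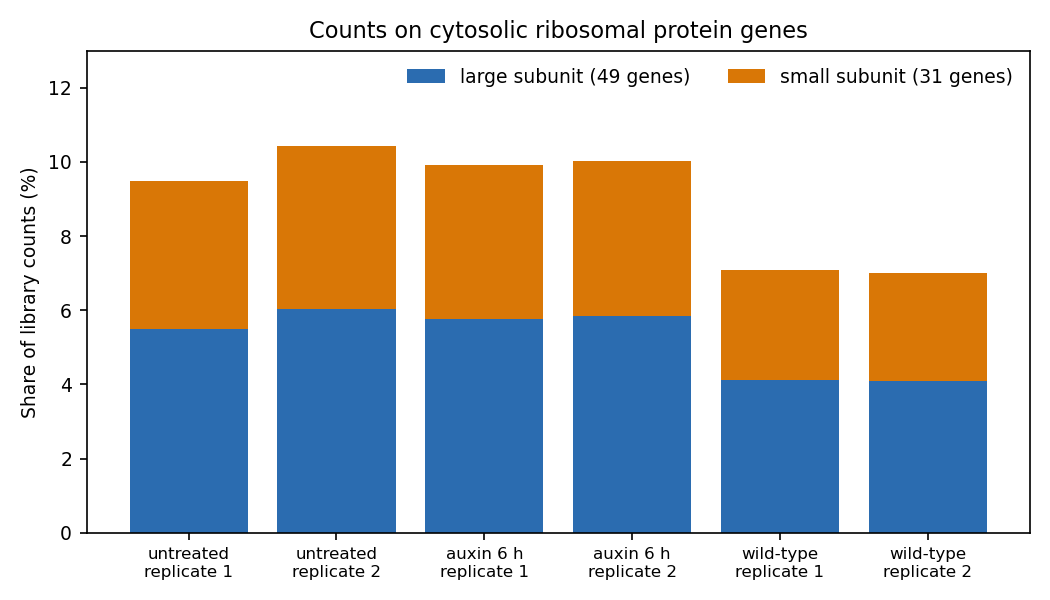
Share of all library counts (%) on large subunit (blue) and small subunit (orange) ribosomal protein genes, 1 bar per library, stacked. The wild-type bars end at 7.08% and 7.0% and the degron bars between 9.47% and 10.4%.

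The ratio of the subunits was close in all libraries. Large subunit genes held 1.378 to 1.404 times the counts of small subunit genes in every library. Large subunit genes made up 5.78% ± 0.382 of the untreated, 5.81% ± 0.0552 of the auxin 6 h and 4.11% ± 0.0231 of the wild-type libraries (SD, n = 2 each). Small subunit genes made up 4.18% ± 0.299, 4.16% ± 0.0237 and 2.93% ± 0.0330 in the same order. Pseudogenes named after members held 0.302% to 0.375% of the counts in every library.

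The 13 mitochondrial mRNAs moved the opposite way between lines. They held 0.341% to 0.441% of the counts in the degron libraries and 1.53% and 1.5% in the wild-type libraries. Leaving them out of the total gave ribosomal protein shares of 9.99%, 10.01% and 7.15% for the untreated, auxin 6 h and wild-type groups.

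Levels per length spread widely among the members. Per kilobase of merged exons and per 1000000 counts, the median over the 76 well-counted members was 536, and the quartiles were 332 and 858. Merged exons include retained introns, so the same was taken per kilobase of the principal transcript. The median was then 1386 (quartiles 1077 and 1857), and the highest member stood 13.7 times above the lowest, Rpl21. In 34 of all 80 members more than 50% of the 100-base stretches are shared with other transcripts. The part of this sharing in the levels was not tested.

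Rplp1, a stalk protein that recruits elongation factors, had the highest level on both scales. It stood at 5024 ± 550 per kilobase per 1000000 counts untreated, 5210 ± 139 after auxin and 3038 ± 7.78 in wild-type cells (SD, n = 2 each, merged exons). Rpl36 followed in the large subunit with 2606 ± 214, 2751 ± 59.1 and 1737 ± 49.2 on the same scale. Rpl4, which lines the peptide exit tunnel, had 1824 ± 105, 1806 ± 4.08 and 1219 ± 10.5. In the small subunit, Rps2 led with 2157 ± 244, 2109 ± 34.5 and 1352 ± 37.0, ahead of Rps15 (1568 ± 101, 1544 ± 100.1 and 1263 ± 7.19) and Rps23 (1339 ± 83.5, 1319 ± 31.1 and 918 ± 24.3). In each of these 6 genes the wild-type level was below both degron levels.

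At the other end, Rpl3l, a muscle paralog of Rpl3, had 1.97 ± 0.141, 2.94 ± 0.960 and 1.19 ± 0.00564 per kilobase per 1000000 counts. The lowest small subunit genes per merged exon were Rps15a (146 ± 9.99, 138 ± 3.23 and 75.3 ± 1.05) and Rps13 (185 ± 11.5, 181 ± 1.85 and 154 ± 2.35). Their rank rests on length: Rps15a has 6270 bases of merged exons but a principal transcript of 640 bases, on which it ranked 49th of 80.

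The auxin comparison asked whether 6 h without polymerase II altered these mRNAs relative to the rest of the poly(A) RNA, and no ribosomal protein gene passed the test. By edgeR's quasi-likelihood test 0 of 80 members had an adjusted p (Benjamini-Hochberg) under 0.05, and DESeq2 also called 0. Over all 16128 genes tested, 2.56% were called higher and 1.64% lower. At an unadjusted p under 0.05 there were 2 members, Rps29 and the row named Rpl24, beside 3245 of the 16128 genes tested. The median log2 change was -0.03 over 80 members, -0.03 for the large and -0.02 for the small subunit, beside 0.00 over all genes tested. Counts are relative to the library, so a fall shared by all mRNAs would not show.

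The well-counted members held to a narrow band. In the 76 members with at least 1000 counts in every library the log2 change ran from -0.16 to 0.16, and their 95% intervals, with a median reach of 0.18 to either side, all lay between -0.34 and 0.32. Both auxin 6 h libraries lay above both untreated libraries in 6 members, beside 25% of all genes tested, and below both in 6 members, beside 24.8%. Before any scaling other than library totals, 41 members had both auxin 6 h libraries between the 2 untreated libraries. In 21 members 1 auxin 6 h library lay between them, and in 18 members none did. The share over all genes was not computed for these counts. Most members differed in the same direction between the untreated libraries, so the counts are not independent.

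The untreated libraries differed from each other. Replicate 2 lay above replicate 1 in 76 of 80 members, by a median of 0.16 on the log2 scale, while the median over all genes tested was 0.00. Between the auxin 6 h libraries the median member differed by 0.03. The count of 0 rests on both untreated libraries, since members were called when either was left out. Without untreated replicate 1 the median log2 change was -0.12 in both subunits. Without untreated replicate 2 it was 0.05 in the large and 0.06 in the small subunit. Over all genes tested the medians in these fits were 0.005 and 0.004, and more genes were called than with every library. Without 1 or the other auxin 6 h library the subunit medians ran from -0.04 to 0.004.

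**Figure D2:**
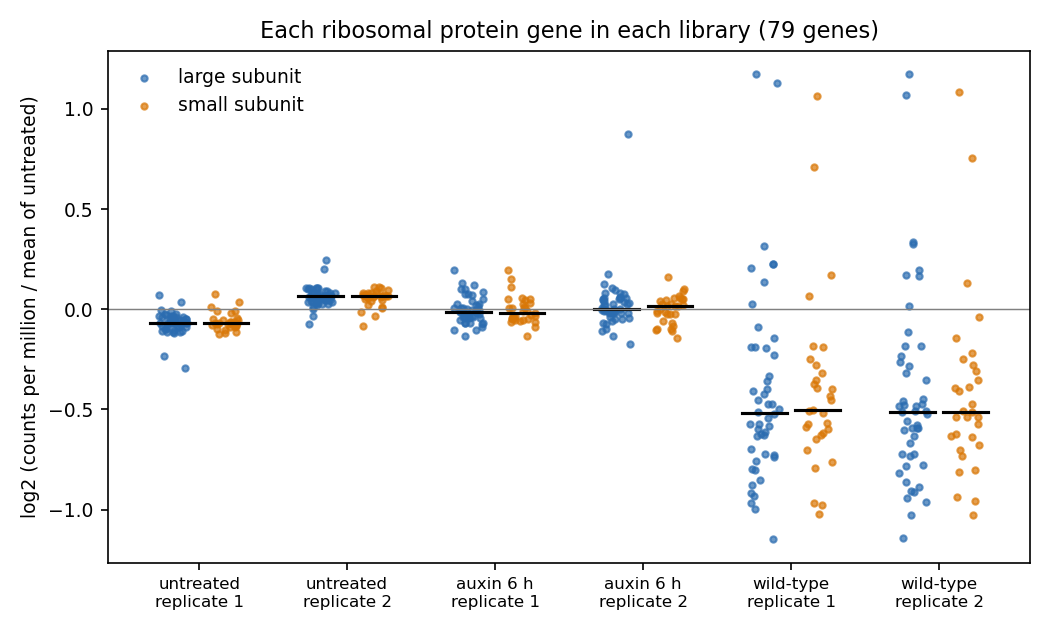
Each of 79 ribosomal protein genes (without the row named Rpl24) as log2 of its CPM over the mean of the untreated libraries, by library, with the median of each subunit as a bar. The medians were -0.07 and 0.06 in the untreated, -0.01 and 0.00 in the auxin 6 h and -0.51 and -0.51 in the wild-type libraries over both subunits.

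Rps29, a small zinc-binding protein near the mRNA path, had 5363 and 4976 counts untreated and 6330 and 6102 after auxin. Both auxin 6 h libraries were above both untreated libraries. The log2 change was 0.16 ± 0.07 (SE), with an unadjusted p of 0.0423 and an adjusted p of 0.228 by edgeR's quasi-likelihood test. Rpl3l had 48 and 45 counts untreated and 57 and 90 after auxin, a log2 difference of 0.56 ± 0.26 (adjusted p = 0.254 by the same edgeR test). The row named Rpl24 had a log2 difference of -0.29 ± 0.09 (edgeR adjusted p = 0.105).

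Textbook members gave values close to 0. Rplp0, the scaffold of the stalk and a common reference gene, had 32904 and 36860 counts untreated and 38298 and 38314 after auxin, a log2 difference of 0.03 ± 0.09. Rpsa, the laminin receptor homolog of the small subunit, differed by -0.01 ± 0.09. Rps6 differed by -0.08 ± 0.09, Rpl23a, at the tunnel exit, by -0.08 ± 0.09, and Rpl41, the shortest member, by 0.04 ± 0.08. Their 95% intervals all included 0.

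Among 8 ribosomal protein genes or close relatives whose names fall outside the rule, 2 passed the edgeR test. The shares over all genes tested were 2.56% higher and 1.64% lower. Rpl7l1, a paralog of Rpl7, had 2363 and 2480 counts untreated and 2039 and 2076 after auxin and fell by 0.34 on the log2 scale (SE 0.07, adjusted p = 0.0135). Rps27rt, a retrogene of Rps27 deposited as Gm9846, had 909 and 913 counts untreated and 1304 and 1168 after auxin and rose by 0.34 (SE 0.07, edgeR adjusted p = 0.0236). In Rps27rt 89.5% of the 100-base stretches occur in other transcripts, and DESeq2 did not call it (adjusted p = 0.133). Both Rpl7l1 and Rps27rt lost the call in edgeR without either auxin 6 h library. Rps3a1, Fau, Rack1, Rpl36al and Rpl22l1 were not called, and their log2 differences ran from -0.18 to 0.10.

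Genes that make and regulate ribosomes were compared by lists. Of 40 ribosome biogenesis factors, 0 rose and 6 fell in the edgeR test, with a median of -0.10, beside 2.56% higher and 1.64% lower over all genes tested. The nucleolar GTPase Gnl3 (nucleostemin) fell by 0.40 (adjusted p = 0.00663), Wdr43, a small subunit processome protein, by 0.27 (adjusted p = 0.0379) and Nip7, a pre-60S factor, by 0.31 (adjusted p = 0.0383), all by edgeR's test. DESeq2 called Gnl3 but neither of the other two, and all 3 lost the call in edgeR without either auxin 6 h library. Of 18 translation factors and other TOP mRNAs, of 11 genes of mTORC1, LARP1 and Myc control and of 5 tested ribosomal protein chaperones, 0 were called in each direction by edgeR. At an unadjusted p under 0.05 there were 0, 1 and 3 in these lists, beside 3245 of the 16128 genes tested.

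Marker and mitochondrial lists moved with auxin too, beside 2.56% of all genes tested called higher and 1.64% called lower. Pluripotency markers fell in 4 of 9, led by Zfp42, Sox2 and Nanog, with log2 changes of -0.65, -0.78 and -0.58. Striated muscle markers rose in 5 of 9 tested, feeder fibroblast markers in 1 of 9 and mitochondrial mRNAs in 3 of 12. Retina markers had 1 gene that could be tested, which was not called. The part of these lists in the ribosomal protein values was not tested.

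The wild-type comparison set unmodified cells against the degron line without auxin, the state before depletion, and most ribosomal protein genes were lower in wild-type cells. It shares the untreated libraries with the auxin comparison, so the values of the comparisons are not independent. edgeR's quasi-likelihood test called 60 of 80 members lower and 11 higher at an adjusted p under 0.05, and 9 did not pass. Without the row named Rpl24 the counts were 60 lower and 10 higher of 79. Over all 15778 genes tested, 30.7% were called lower and 29.9% higher, and over the 3604 genes of at least 1000 mean counts 27.9% were lower and 46.4% higher.

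Both subunits were lower. In the large subunit 35 of 49 genes were lower and 8 higher, with a median log2 difference of -0.45, and in the small subunit 25 of 31 were lower and 3 higher, with a median of -0.46. The median was -0.01 over all genes tested and 0.12 over those of at least 1000 mean counts. Both wild-type libraries lay below both untreated libraries in 65 members, beside 6465 of the 15778 genes tested, and above both in 11, beside 6314. At the study's further condition of a log2 difference over 1, 3 members were higher, beside 7.12% of all genes tested, and 1 was lower, beside 11%.

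The size of this shift varied with the untreated libraries, and its distance from 0 varied with scaling. The large subunit median ran from -0.57 to -0.34 as 1 library at a time was left out, beside -0.02 to 0.002 over all genes tested. Fewer members were called higher without either wild-type library, and fewer genes were called over all genes tested as well. Scaled to mitochondrial mRNAs, the median of all genes tested moved to -2.10 and those of the subunits to -2.53 and -2.55. Then 80 members were called lower and 0 higher, beside 15235 lower and 73 higher of the 15778 genes tested. This scaling moved the members together with all genes. Every ribosomal protein gene described below as higher in wild-type cells was higher with scaling by TMM, DESeq2 size factors and library totals, and lower with the mitochondrial scaling.

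**Figure D3:**
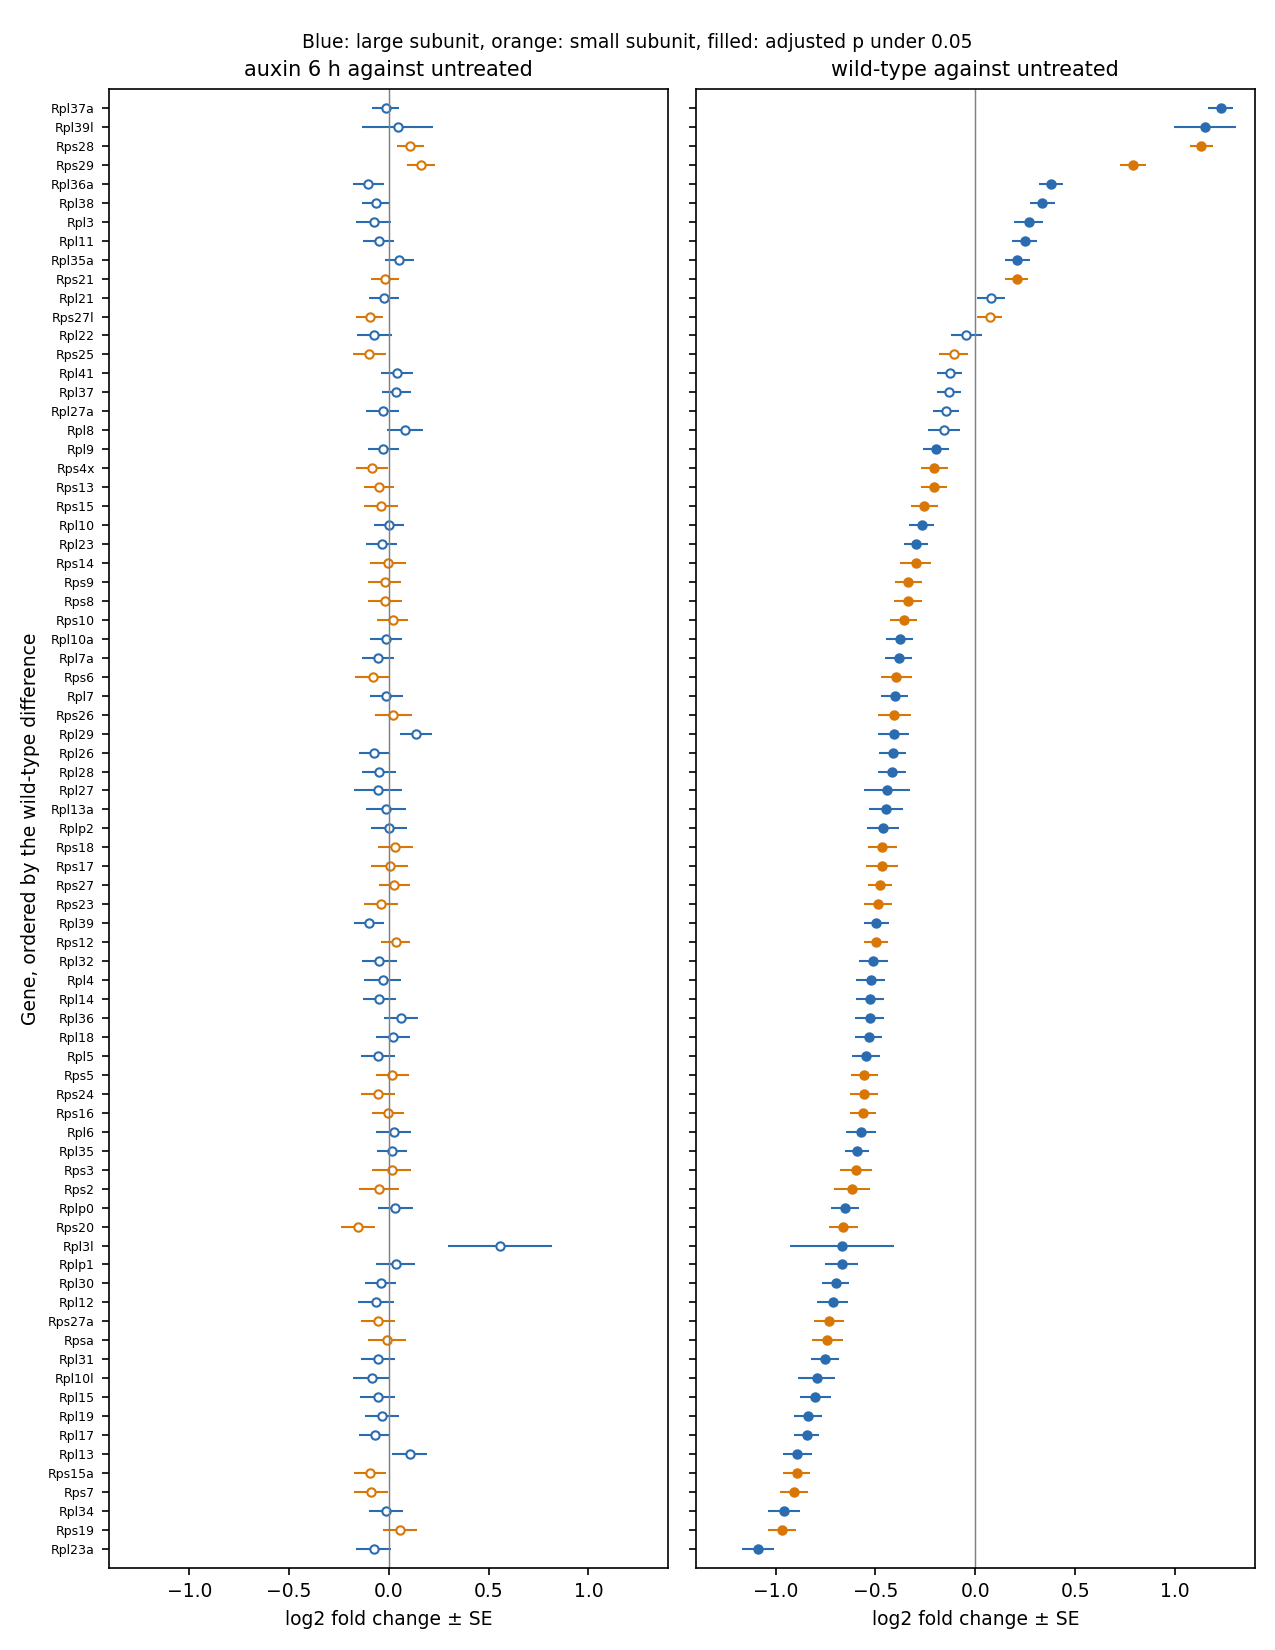
Log2 fold change ± SE of 77 ribosomal protein genes for auxin 6 h (left) and wild-type (right) against untreated, blue for the large and orange for the small subunit, filled where the edgeR adjusted p was under 0.05. No point is filled on the left, and 59 on the right are filled below 0 and 10 above.

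Rpl23a, the docking site for the signal recognition particle and nascent chain factors at the tunnel exit, was the lowest. It had 10425 and 12547 counts in the untreated and 5323 and 5388 in the wild-type libraries. The groups do not overlap, and the log2 difference was -1.09 ± 0.08 (SE, edgeR adjusted p = 5.12e-07). In Rpl23a 80.0% of the 100-base stretches are shared with other transcripts, and the snoRNA Snord42b lies within it.

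Large subunit genes with the next smallest p-values included Rpl17, Rpl13 and Rpl34. Rpl17, at the tunnel exit, had 16780 and 18187 counts untreated and 9520 and 9796 in wild-type cells, a log2 difference of -0.85 ± 0.06 (edgeR adjusted p = 6.57e-07). Rpl13 had 41156 and 45625 against 23361 and 23081 counts, a difference of -0.89 ± 0.07. Rpl34 had 6439 and 7805 against 3662 and 3612 counts, a difference of -0.96 ± 0.08. None of these groups overlapped.

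In the small subunit, Rps19, the protein most often altered in Diamond-Blackfan anaemia, led. It had 20270 and 23074 counts untreated and 10982 and 11001 in wild-type cells, a log2 difference of -0.97 ± 0.07 (edgeR adjusted p = 5.37e-07). Rps7 had 17593 and 20240 against 9884 and 10101 counts (-0.91 ± 0.07), and Rps15a had 12260 and 14011 against 6913 and 7098 counts (-0.90 ± 0.07). Rps27a, made as a fusion with ubiquitin, had 15672 and 18296 against 10278 and 9995 counts (-0.73 ± 0.07). Rpsa had 43036 and 50164 against 27683 and 27646 counts (-0.74 ± 0.08).

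Rplp0 differed by -0.65 ± 0.07 and Rps6 by -0.40 ± 0.08 on the log2 scale, both called lower by edgeR (adjusted p = 1.16e-05 and 0.00102). Rpl41, with 19336 and 20996 counts untreated and 18213 and 18399 in wild-type cells, differed by -0.13 ± 0.06 and was not called (edgeR adjusted p = 0.104). Rpl8, Rpl21, Rpl22, Rpl27a, Rpl37, Rps25 and Rps27l were also not called, with differences from -0.16 to 0.08.

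Against the trend, Rpl37a, a zinc-binding protein of the large subunit, was higher. It had 4541 and 4954 counts in the untreated and 11021 and 11081 in the wild-type libraries, a log2 difference of 1.23 ± 0.06 (edgeR adjusted p = 3.65e-08). Rps28 had 4469 and 4420 against 9559 and 9779 counts, a difference of 1.13 ± 0.06 (edgeR adjusted p = 4.15e-08). Rps29 had 5363 and 4976 against 8701 and 9043 counts, a difference of 0.79 ± 0.06. The groups were far apart in all 3 genes.

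Smaller rises were seen in Rpl36a (0.38 ± 0.06), Rpl38 (0.34 ± 0.06), Rpl3 (0.27 ± 0.07), Rpl11 (0.25 ± 0.06), Rpl35a (0.21 ± 0.06) and Rps21 (0.21 ± 0.06), all on the log2 scale and called by edgeR. Rpl3, Rpl11, Rpl35a and Rps21 lost the call without either wild-type library. Rpl38 is known for selective translation of Hox mRNAs, and Rpl11 binds Mdm2 when ribosome assembly is disturbed. In Rpl36a 83.6% and in Rps28 66.9% of the 100-base stretches are shared with other transcripts, while in Rps21 it is 0%, in Rpl37a 21.4% and in Rps29 24.7%. Over the 45 members with at most 50% shared, 6 were higher and 30 lower, and over the 53 without a same-strand overlap 9 were higher and 38 lower.

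Ratios within a library need no scaling. Rpl37a had 43.6% and 39.5% of the counts of Rpl23a in the untreated, 43.8% and 42.4% in the auxin 6 h and 207% and 206% in the wild-type libraries. Rps28 had 22.05% and 19.2% of the counts of Rps19 in the untreated, 21.98% and 20.6% in the auxin 6 h and 87.0% and 88.9% in the wild-type libraries. These pairs were picked for their distance in the wild-type comparison, so the ratios are a description of unequal change. Rpl37a had fewer counts than Rpl23a in the degron libraries and more in both wild-type libraries.

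**Figure D4:**
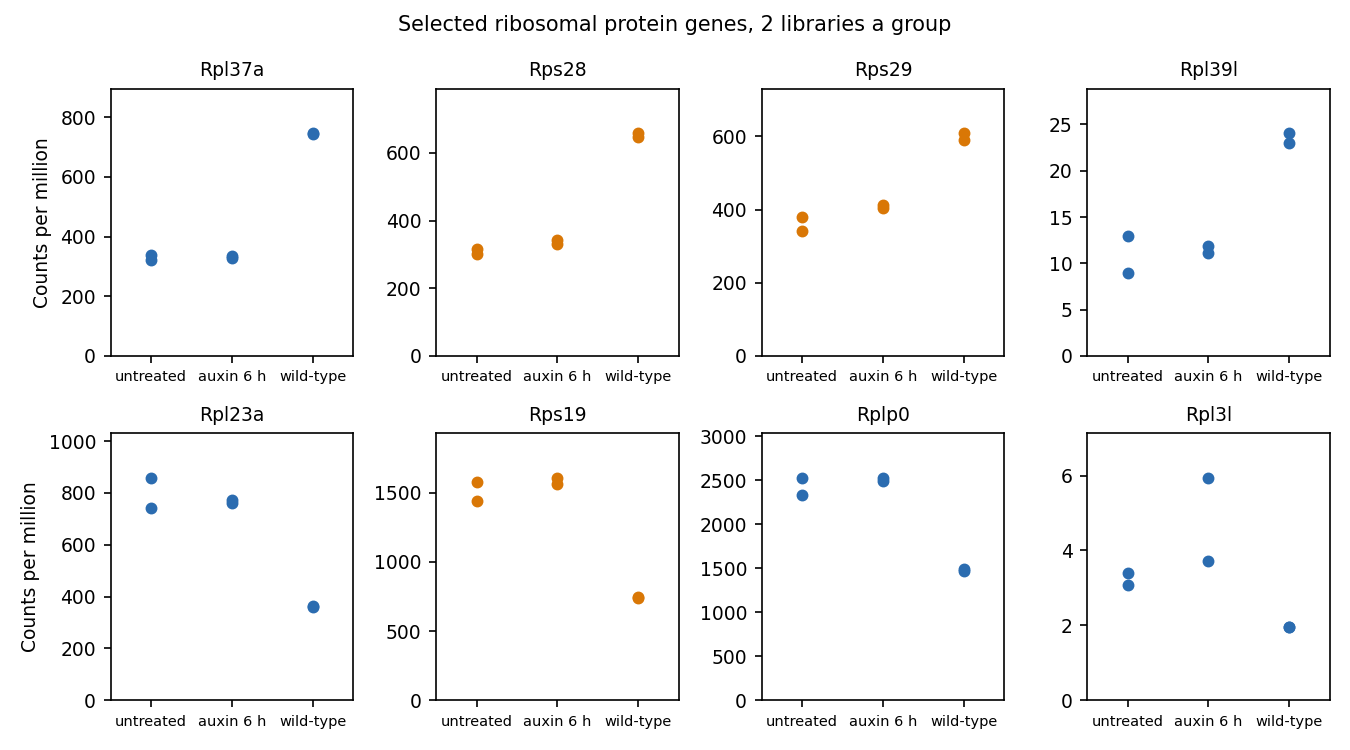
CPM in each library for Rpl37a, Rps28, Rps29 and Rpl39l (top) and Rpl23a, Rps19, Rplp0 and Rpl3l (bottom), 2 points a group. The top genes were higher and the bottom genes lower in both wild-type libraries than in both untreated libraries.

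The members that were higher were mostly those with the shortest coding sequences, a grouping noticed after the values were seen. Of the 20 members with 75 to 357 coding bases, 8 were higher and 9 lower, with a median log2 difference of -0.13. Of the 20 with 369 to 453 bases, 0 were higher and 17 lower (median -0.46). Of the 19 with 456 to 612 bases, Rpl11 was higher and 16 were lower (median -0.53), and of the 20 with 624 to 1257 bases, Rpl3 was higher and 18 were lower (median -0.52).

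Other genes of the same coding lengths had medians closer to 0. The 495 other genes of the shortest class had a median of -0.06, with 28.7% higher and 32.7% lower, and the medians in the longer classes were -0.12, -0.11 and -0.06. In those longer classes 37.7%, 37.4% and 33.6% of the other genes were lower, and 23.0%, 23.1% and 27.2% were higher. Short members went both ways: Rpl39 and Rpl39l both have 153 coding bases, and their log2 differences were -0.50 and 1.15. Over the 79 members, coding length and the log2 difference had a Pearson r of -0.32 and a Spearman rho of -0.30. The members share the same 4 libraries and many share sequence with pseudogenes, so this is a description. In the auxin comparison the class medians were 0.01, -0.04, -0.03 and -0.02.

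**Figure D5:**
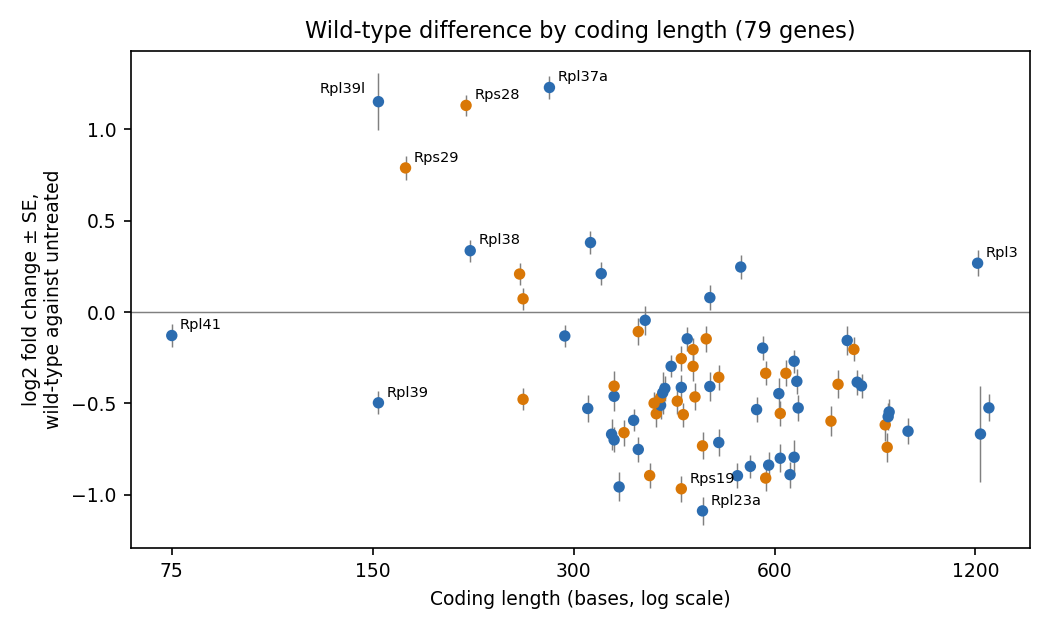
Log2 fold change ± SE of wild-type against untreated cells by coding length (bases, log axis) for 79 ribosomal protein genes, blue for the large and orange for the small subunit. Rpl37a, Rpl39l, Rps28 and Rps29 stand highest, all at or under 276 bases, while Rpl39 and Rpl41, also short, lie below 0.

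Members with and without a match to the TOP pattern at the annotated start had similar medians. The 12 members with a C at the annotated start followed by 4 of C or T had a median log2 difference of -0.46 in wild-type cells, with 2 higher (Rpl38 and Rps21) and 10 lower. The 47 members with a window but without that start had a median of -0.44, with 6 higher and 35 lower. Over all genes tested 29.9% were higher and 30.7% lower. The annotated start decides the split, and members without a match may still begin with a TOP tract. The medians therefore do not compare TOP mRNAs with others. In the auxin comparison both medians were -0.03.

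The paralogs did not all move with the genes they derive from. Rpl39l, a copy of Rpl39 known from testis, had 126 and 190 counts untreated, 171 and 179 after auxin and 355 and 342 in wild-type cells. It was higher in wild-type cells by 1.15 ± 0.16 on the log2 scale (edgeR adjusted p = 6.33e-05), and its counts were 1.17% and 1.65% of those of Rpl39 untreated against 4.68% and 4.22% in wild-type cells. Rpl10l, the testis copy of Rpl10, had 552 and 641 counts untreated, 581 and 626 after auxin and 353 and 329 in wild-type cells, and was lower by -0.80 ± 0.09 (edgeR adjusted p = 2.27e-05).

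Rps27l, a p53-responsive copy of Rps27, had 3790 and 3993 counts untreated, 4011 and 3813 after auxin and 4195 and 3926 in wild-type cells. It was not called (log2 difference 0.07 ± 0.06, edgeR adjusted p = 0.331), while Rps27 was lower by -0.48 ± 0.06. Rpl3l had 29 and 29 counts in wild-type cells against 48 and 45 untreated, a log2 difference of -0.67 ± 0.26 that passed in edgeR (adjusted p = 0.0438) and not in DESeq2 (adjusted p = 0.264). Rps4l, deposited as Rps4y2 and so outside the naming rule, had 2401 and 2631 counts untreated and 3668 and 3426 in wild-type cells, and was higher by 0.51 ± 0.07 (edgeR adjusted p = 5.05e-05).

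Of the 8 ribosomal protein genes or relatives outside the naming rule, 3 were lower and 3 higher in wild-type cells by edgeR. The shares over all genes tested were 30.7% lower and 29.9% higher. Rack1, the kinase-binding scaffold of the small subunit deposited as Gnb2l1, had 46400 and 52052 counts untreated and 29100 and 28404 in wild-type cells (-0.76 ± 0.07). Rps3a1 differed by -0.46 ± 0.07 and Fau, the source of Rps30, by -0.33 ± 0.06. The 3 that were higher are paralogs: Rps27rt by 0.36 ± 0.07, Rpl7l1 by 0.34 ± 0.06 and Rpl22l1 by 0.33 ± 0.08. Rpl36al differed by -0.00 ± 0.07 and was not called.

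The other lists went both ways. Of 40 ribosome biogenesis factors, 12 were higher and 8 lower (median 0.05), beside 29.9% higher and 30.7% lower over all genes tested. Dkc1, the pseudouridine synthase of box H/ACA particles, was higher by 1.01 ± 0.08, Rpf2, which joins 5S RNA to the large subunit, was higher by 0.97 ± 0.07, and Eif6, the anti-association factor, was lower by -0.83 ± 0.06. Of 18 translation factors and other TOP mRNAs, 6 were higher and 5 lower (median -0.05), with Hnrnpa1 at 1.36 ± 0.07, Eif2s3x at 0.93 ± 0.08 and Tpt1 at -0.98 ± 0.06.

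Among the 5 tested ribosomal protein chaperones 3 were higher and 1 lower: Heatr3, which carries Rpl5 to the nucleus, at 0.56 ± 0.07, Bccip at 0.35 ± 0.09 and Pdcd2l at -0.42 ± 0.07 were those with the smallest p. Of 11 genes of mTORC1, LARP1 and Myc control 4 were higher and 2 lower. Both lists stand beside 29.9% higher and 30.7% lower over all genes tested. Mycn, the Myc family member typical of early embryonic cells, had 333 and 364 counts untreated and 2910 and 2852 in wild-type cells, a log2 difference of 3.06 ± 0.07 (edgeR adjusted p = 1.72e-10). Eif4ebp1, the translational repressor inactivated by mTORC1, was lower by -1.19 ± 0.07, and Tsc1, an mTORC1 inhibitor, by -0.60 ± 0.07.

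Markers of other cells and states also differed between the lines. The share over all genes tested was 29.9% higher and 30.7% lower. Pluripotency markers were higher in 6 of 9 and lower in 1, and mitochondrial mRNAs were higher in 13 of 13. Feeder fibroblast markers were higher in 2 and lower in 3 of 9 tested. Striated muscle markers were lower in 1 of 7 tested, and 0 retina markers could be tested. The part of these differences in the ribosomal protein values was not tested. Line, clone, tag, library origin and possibly doxycycline differ together between the groups and cannot be told apart.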

How the data were processed

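Poly(A) RNA-Seq of 6 mouse libraries was used. The authors deposited whole-number counts per gene, made after HISAT2 2.1.0 alignment to mm10. The study names Salmon for counts and htseq-count for gene-level quantification on GENCODE. Which tool made the deposited counts, the release and the strand setting are not given in the sources used here. The tables also hold the authors' means, fold changes and p-values, and 2 per-sample columns that match no sample; none was used. The tables were joined by gene identifier, and gene models, lengths and neighbours came from GENCODE vM21. Genes were filtered with edgeR's filterByExpr, scaled by TMM and tested with edgeR 4.0.16 in R 4.3.3 (glmQLFit and glmQLFTest, prior count 0.125), fitted on all genes of the groups compared, with Benjamini-Hochberg adjustment over all genes tested and a threshold of 0.05. All 80 members passed the filter in both comparisons. DESeq2 1.42.0 was an alternative. The scripts were tested on simulated data. Depth was 14094022 to 15358714 counts a library; counting error is small for members above 1000 counts. Intervals are 95% intervals of the fitted change, from the t distribution with the degrees of freedom of edgeR's test. Levels are counts per kilobase per 1000000 counts.

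The members, gene lists and tests were chosen with earlier results of these data known. Named genes were, for each comparison, subunit and direction, up to 5 called members with the smallest p; per subunit the 3 highest and 2 lowest levels; all paralogs and all relatives outside the naming rule; 5 textbook members; and up to 3 called genes of each other list. Other members were named after their values were seen, and a few genes the rule would name are not reported here.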

Additional observations from a re-analysis of the deposited data

How the results depend on the processing

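In the auxin comparison the counts of members called were 0 in both directions in every alternative that kept all libraries, except that the row named Rpl24 was called lower, 1 member, with the replicate block and with all 3 groups in 1 fit. The replicate block treats libraries of the same number as pairs. Their deviations correlated at 0.07 in the auxin and -0.03 in the wild-type comparison. Whether libraries of the same number share a culture or batch is not given in the sources used here. With 2 libraries a group, these correlations cannot decide it. With the replicate block 1081 genes were called higher and 849 lower with auxin, in place of 413 and 264, and 11 members were called higher and 60 lower in the wild-type comparison. Leaving out 1 library at a time gave 0 to 7 members higher and 0 to 22 lower with auxin (subunit medians -0.12 to 0.05 and -0.12 to 0.06), and 7 to 13 higher and 47 to 66 lower in wild-type cells (subunit medians -0.57 to -0.34 and -0.53 to -0.34). A lone library was then assumed to vary like the other groups.

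Scaled to mitochondrial mRNAs, the auxin medians were -0.19 for both subunits, beside -0.17 over all genes tested. The wild-type medians were -2.53 and -2.55, with 0 members higher. Under this scaling these log2 differences between wild-type and untreated cells turned negative: Rpl37a -0.86, Rpl39l -0.92, Rps28 -0.97, Rps29 -1.31, the row named Rpl24 -1.38, Rpl36a -1.71, Rpl38 -1.76, Rpl3 -1.82, Rpl11 -1.85, Rpl35a -1.88, Rps21 -1.89 and Rps27l -2.02. The same held for Rps4y2 (-1.59), Gm9846 (-1.74), Rpl22l1 (-1.76), Rpl7l1 (-1.76), Bccip (-1.74), Heatr3 (-1.53), Dkc1 (-1.08), Rpf2 (-1.12), Eif2s3x (-1.15), Hnrnpa1 (-0.73), Dppa5a (-0.68), Tdgf1 (-0.96), Utf1 (-0.999), Pdgfra (-0.32) and mt-Nd4 (-0.35). The median of all genes moved with them, to -2.10.

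Requiring a log2 difference over 1 left 3 members higher and 1 lower in wild-type cells. Alternatives chosen after seeing the data, which have fewer members, gave 6 higher and 30 lower with at most 50% shared stretches and 38 lower without a same-strand overlap. Adding pseudogenes gave shares of 10.3% after auxin and 7.39% in wild-type cells, and leaving mitochondrial mRNAs out gave 7.15% in wild-type cells; leaving out 1 library gave 9.47% to 10.4% untreated, 9.91% to 10.02% after auxin and 7.0% to 7.08% in wild-type cells. The median level per length was 568, 571 and 390 for untreated, auxin 6 h and wild-type on merged exons, 979, 958 and 738 on the longest transcript, and 1465, 1471 and 1135 on the principal transcript, since the lengths are shorter. Over all genes, auxin calls ranged from 43 higher and 12 lower without a filter on low counts to the block's counts among fits with every library, and DESeq2 called 128 and 108.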
